A study of Mus musculus with 9 samples.

Results

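The mitochondrial enzymes of fatty acid beta oxidation were followed in mouse adipose tissue through 10 genes, chosen by name for their steps in the pathway: Cpt1a, Slc25a20 and Cpt2 of the carnitine shuttle, the acyl-CoA dehydrogenases Acadvl, Acadl and Acadm, the trifunctional protein subunits Hadha and Hadhb, the thiolase Acaa2, and Etfdh of the electron transfer step. All 10 were among the 3958 genes of the count table, and all 10 passed the filter on low counts, as did every gene listed there. RNA sequencing was done on 9 libraries from adipose tissue of male C57BL/6J mice, an inbred strain, at day 21. Of these, 3 libraries came from the electroacupuncture group (EA, numbers 5, 7 and 8), in which current is passed through acupuncture needles, 3 carried the prefix MPX (numbers 2, 5 and 7) and 3 the prefix CPX (numbers 4, 6 and 8). The study design names a normal diet, a high-fat diet, and a high-fat diet with electroacupuncture, so EA mice were on the high-fat diet. Neither MPX nor CPX is tied to a diet in the labels, and differences that involve them are given no diet direction. The fat depot, the age of the mice and the acupuncture points are not in the labels, and nothing there says that libraries of a group came from separate mice, so a p-value here reflects only how far these libraries spread, which may be technical variation.

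Fatty acids are activated to acyl-CoA outside the mitochondrial matrix and cannot cross the inner membrane in that form. Carnitine palmitoyltransferase 1 at the outer membrane passes the acyl group to carnitine, a carrier in the inner membrane brings acylcarnitine in, and carnitine palmitoyltransferase 2 restores acyl-CoA inside. Repeated rounds of dehydrogenation, hydration, a further dehydrogenation and thiolysis then shorten the chain, releasing acetyl-CoA for the citric acid cycle and electrons for the respiratory chain. Malonyl-CoA, the first committed product of fatty acid synthesis, inhibits carnitine palmitoyltransferase 1. White fat mainly stores fatty acids as triglyceride and releases them, while brown fat burns them for heat.

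Across the 9 libraries, 9 of the 10 genes shared a similar profile and Cpt1a did not follow it. The windows around their start sites are shown because these genes vary together, with Cpt1a as the one that stands apart. A RefSeq window (250 bases before to 50 bases after the start, build GRCm38.p6) was matched by symbol for 9 of the 10 genes. In the sequences of Cpt1a (chr19:3323051-3323350, plus strand), Cpt2 (chr4:107923540-107923839, minus strand) and Hadhb (chr5:30155003-30155302, plus strand), capitals mark the GC box GGGCGG on either strand, so that a match on the opposite strand reads CCGCCC.
Cpt1a: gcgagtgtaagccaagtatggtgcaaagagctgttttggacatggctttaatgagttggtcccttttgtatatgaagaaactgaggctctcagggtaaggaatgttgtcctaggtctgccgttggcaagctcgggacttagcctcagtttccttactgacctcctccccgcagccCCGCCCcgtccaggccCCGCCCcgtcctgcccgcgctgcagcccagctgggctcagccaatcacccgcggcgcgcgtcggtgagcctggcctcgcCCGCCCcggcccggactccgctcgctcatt
Cpt2: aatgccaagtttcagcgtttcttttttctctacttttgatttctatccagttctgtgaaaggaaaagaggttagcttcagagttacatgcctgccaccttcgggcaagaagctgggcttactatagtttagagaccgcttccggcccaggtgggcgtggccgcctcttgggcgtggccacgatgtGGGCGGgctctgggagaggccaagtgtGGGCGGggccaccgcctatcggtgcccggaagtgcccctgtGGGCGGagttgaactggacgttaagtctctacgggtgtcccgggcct
Hadhb: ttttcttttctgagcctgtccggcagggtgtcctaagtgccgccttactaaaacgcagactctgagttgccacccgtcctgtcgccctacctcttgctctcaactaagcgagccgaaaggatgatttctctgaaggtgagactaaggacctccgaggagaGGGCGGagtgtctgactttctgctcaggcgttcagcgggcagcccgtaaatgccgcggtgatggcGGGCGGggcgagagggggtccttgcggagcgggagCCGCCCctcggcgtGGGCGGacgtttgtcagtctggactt
The Cpt1a and Cpt2 windows each hold 3 GC boxes and the Hadhb window holds 4. A GC box was found in 7 of the 9 windows, the exceptions being Acadvl and Acadm, and in 35.7% of all 32851 windows. The box in the Hadha window is the same site as a box in the Hadhb window, within bases that both windows share. The windows over which the 35.7% was taken include those of genes not listed here, so the shares are not for like sets of genes. GC content of the 9 windows ran from 50.7% to 70.3%, against a median of 52.7% over all windows, and they held 9 to 34 CpG dinucleotides, against a median of 7.

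Other letters were searched on both strands of the same windows. The DR1 element of PPAR and RXR, nuclear receptors that drive many fatty acid oxidation genes, was searched as AGGTCANAGGTCA with up to 2 mismatches. It matched 1 of the 9 windows, that of Slc25a20, and 3.86% of all windows held a match. In Slc25a20, AGGTGAAAGGTCG has 2 mismatches and begins at base 7, counting the start site as base 1. The E-box CACGTG was in 0 of the 9 windows and in 7.15% of all, and the ERR half-site TNAAGGTCA was in 0 of the 9 and in 1.28% of all. The CCAAT box was in the Cpt1a and Etfdh windows and in 37.4% of all. A match is a description of letters, and regulatory sequence outside these windows was not searched. Hadha and Hadhb lie head to head on chromosome 5, with 272 bases between their RefSeq start sites, so their windows share 228 bases.

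The libraries differed in ways their groups do not capture, and several values below rest on single libraries. The counts summed over the listed genes ran from 12115183 (CPX 6) to 14208853 (MPX 7), and are not sequencing depths because the table holds only the more abundant genes. All 20 adipocyte markers were listed, including Adipoq, which encodes adiponectin, and Plin1, which coats the lipid droplet. The summed level of those markers was 34520 to 52450 CPM (counts scaled to the listed total of each library, with TMM factors) in EA, 54990 to 68080 CPM in MPX, and 99520, 8762 and 50720 CPM in CPX 4, CPX 6 and CPX 8. Of 12 B cell markers, 9 were listed, and their sum was 714 to 2101 CPM in EA, 29.5 to 53.4 CPM in MPX, and 21.4, 3969 and 58.8 CPM in CPX 4, CPX 6 and CPX 8. CPX 6 was thus low in adipocyte transcripts and high in B cell transcripts, while CPX 4 was high in adipocyte transcripts and had the lowest scaling factor (0.753, against 0.981 to 1.10 elsewhere). Markers of brown and beige adipocytes (12 genes, with Ucp1 among them), skeletal muscle (13), T cells (11) and mesothelium (8) were not analysed here. The extraction text mentions retina, and of 16 retina genes only Gnb1, which is widely expressed, was listed. In tissue RNA, fewer cells of a type and less RNA per cell cannot be told apart.

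Cpt1a encodes the liver-type carnitine palmitoyltransferase 1, the entry and control step of the pathway. It lies on chromosome 19 (mm10, 3323301 to 3385732, plus strand). Its level was 120.1, 145.2 and 153.1 CPM in EA 5, EA 7 and EA 8, 186.4, 219.9 and 173.8 CPM in MPX 2, MPX 5 and MPX 7, and 40.5, 125.3 and 105.5 CPM in CPX 4, CPX 6 and CPX 8. Every MPX library stood above every EA and every CPX library, and EA and CPX overlapped, with CPX 4 far below the rest. The means were 139.5 ± 17.2 CPM in EA, 193.4 ± 23.9 CPM in MPX and 90.5 ± 44.4 CPM in CPX (SD, n = 3 each). MPX minus CPX was 1.10 on the log2 scale (SE 0.38), a 2.14-fold difference, with an unadjusted p of 0.019 and an adjusted p of 0.362 in edgeR's quasi-likelihood test over all 3958 genes. EA minus MPX was -0.47 (SE 0.37; edgeR adjusted p = 0.775) and EA minus CPX was 0.62 (SE 0.37; edgeR adjusted p = 0.997). None of these passed an adjusted p under 0.05.

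The Cpt1a differences kept their signs in each of the fits tried. EA minus MPX ran from -0.58 to -0.37, EA minus CPX from 0.28 (without CPX 4) to 0.92 (without CPX 6), and MPX minus CPX from 0.78 (without CPX 4) to 1.40 (without CPX 6). The smallest adjusted p that Cpt1a reached in these was 0.0525, for MPX against CPX with DESeq2. Without CPX 4 and CPX 6, the EA minus MPX difference was -0.51 with an adjusted p of 0.0875 in edgeR.

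The other genes of the shuttle did not show the Cpt1a order of groups. Slc25a20 (chromosome 9, 108662088 to 108684641, plus strand), the carnitine-acylcarnitine carrier, had 141.7, 80.7 and 77.3 CPM in EA libraries, 84.9, 100.4 and 112.7 CPM in MPX libraries, and 115.8, 40.2 and 62.2 CPM in CPX, in the library order given above for Cpt1a. Cpt2 (chromosome 4, 107903981 to 107923610, minus strand), the inner membrane transferase, had 339.3, 174.0 and 174.7 CPM in EA libraries, 205.5, 162.8 and 212.2 CPM in MPX libraries, and 330.7, 66.5 and 194.8 CPM in CPX. For both genes EA 5 was the highest library, CPX 4 the next and CPX 6 the lowest, and the 3 groups overlapped. Slc25a20 averaged 99.9 ± 36.3 CPM in EA, 99.3 ± 13.9 CPM in MPX and 72.8 ± 38.9 CPM in CPX. Cpt2 averaged 229.3 ± 95.2 CPM in EA, 193.5 ± 26.8 CPM in MPX and 197.3 ± 132.1 CPM in CPX (SD, n = 3 each). CPX 4 thus held the lowest Cpt1a level of the 9 libraries together with the next to highest Cpt2 level.

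**Figure D1:**
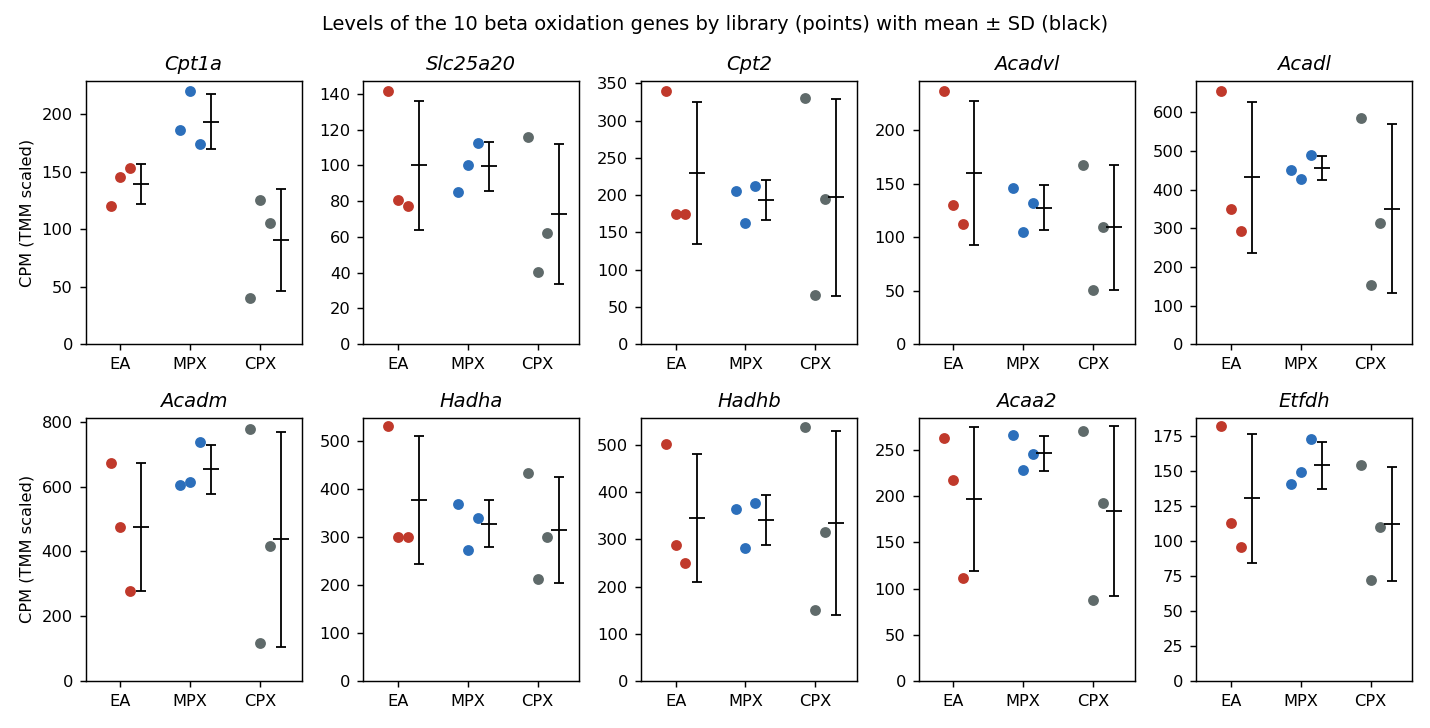
Level of each of the 10 genes (TMM scaled CPM, axes from 0) in the EA, MPX and CPX libraries, 1 point a library, with the mean ± SD of each group in black. Cpt1a is the gene whose MPX points (173.8 to 219.9 CPM) stand above all others, and the other genes overlap between groups with a wide spread in EA and CPX.

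The acyl-CoA dehydrogenases carry out the opening step of each round, and differ in the chain lengths they prefer: Acadvl takes very long, Acadl long and Acadm medium chains. Acadvl (chromosome 11, 70010183 to 70015411, minus strand) had 236.7, 130.4 and 112.3 CPM in EA libraries, 145.7, 104.9 and 132.4 CPM in MPX libraries, and 167.4, 51.0 and 109.4 CPM in CPX. Acadl (chromosome 1, 66830839 to 66863277, minus strand) had 654.4, 348.8 and 291.9 CPM in EA libraries, 450.0, 427.8 and 489.9 CPM in MPX libraries, and 584.7, 153.6 and 312.2 CPM in CPX. Acadm (chromosome 3, 153922357 to 153944632, minus strand) had 673.4, 474.1 and 276.7 CPM in EA libraries, 605.7, 614.3 and 739.3 CPM in MPX libraries, and 779.1, 116.4 and 417.7 CPM in CPX. All 3 were lowest in CPX 6, and no pair of groups was separated for any of them. Acadm varied most of the 10 genes, with an SD of 0.88 over the 9 libraries on the log2 scale against a median of 0.438 over all listed genes. Its level in CPX 4 was 6.70 times that in CPX 6.

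Acadm averaged 474.7 ± 198.4 CPM in EA, 653.1 ± 74.8 CPM in MPX and 437.7 ± 331.8 CPM in CPX (SD, n = 3 each). EA minus MPX was -0.46 for Acadm (SE 0.61), -0.08 for Acadl (SE 0.49) and 0.32 for Acadvl (SE 0.44), each smaller than its SE. EA minus CPX was 0.12, 0.30 and 0.55 for the same genes, and MPX minus CPX was 0.58, 0.38 and 0.22. These values moved with single libraries: MPX minus CPX was 1.32 for Acadm and 1.00 for Acadl without CPX 4, and 0.12 and 0.02 without CPX 6, and EA minus CPX for Acadvl was 0.15 without EA 5 and 1.00 without CPX 4. The lowest edgeR adjusted p among these 9 differences was 0.654.

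The trifunctional protein carries out the later steps for long chains, with the hydratase and dehydrogenase on its alpha subunit (Hadha) and the thiolase on its beta subunit (Hadhb), and Acaa2 is the matrix thiolase for shorter chains. Hadha (chromosome 5, 30118304 to 30155162, minus strand) had 531.5, 300.1 and 299.0 CPM in EA libraries, 368.1, 272.5 and 340.0 CPM in MPX libraries, and 432.2, 213.1 and 299.7 CPM in CPX. Its neighbour Hadhb (chromosome 5, 30155248 to 30184593, plus strand), 85 bases away in the authors' table, had 501.4, 287.7 and 249.9 CPM in EA libraries, 364.2, 281.2 and 377.7 CPM in MPX libraries, and 538.1, 151.1 and 315.6 CPM in CPX. Both subunits were highest in EA 5 and CPX 4 and lowest in CPX 6. Acaa2 (chromosome 18, 74779197 to 74806207, plus strand) had 262.9, 217.6 and 111.3 CPM in EA libraries, 265.7, 227.8 and 245.5 CPM in MPX libraries, and 270.5, 87.8 and 193.0 CPM in CPX. The groups overlapped for these 3 genes.

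Hadha averaged 376.9 ± 133.9 CPM in EA, 326.9 ± 49.2 CPM in MPX and 315.0 ± 110.4 CPM in CPX (SD, n = 3 each). Hadhb averaged 346.3 ± 135.6 CPM in EA, 341.1 ± 52.3 CPM in MPX and 335.0 ± 194.2 CPM in CPX (SD, n = 3 each). Acaa2 averaged 197.3 ± 77.8 CPM in EA, 246.3 ± 19.0 CPM in MPX and 183.8 ± 91.7 CPM in CPX. The log2 differences of these 3 genes ran from -0.32 to 0.21 for EA minus MPX, 0.05 to 0.26 for EA minus CPX and 0.03 to 0.42 for MPX minus CPX, with SE of 0.35 to 0.46.

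Etfdh (chromosome 3, 79603788 to 79629500, minus strand) encodes the dehydrogenase that passes electrons from the acyl-CoA dehydrogenases to ubiquinone. It had 182.4, 112.8 and 95.7 CPM in EA libraries, 140.5, 148.9 and 172.5 CPM in MPX libraries, and 154.0, 72.2 and 110.0 CPM in CPX. EA held both the highest level (EA 5) and the next to lowest (EA 8), so it overlapped MPX and CPX. The means were 130.3 ± 45.9 CPM in EA, 154.0 ± 16.6 CPM in MPX and 112.0 ± 41.0 CPM in CPX (SD, n = 3 each). EA minus MPX was -0.24, EA minus CPX was 0.22 and MPX minus CPX was 0.46 (SE 0.33 each). Acadvl, Acadl, Hadha, Hadhb and Etfdh overlap other annotated genes in GENCODE M21, none of them in the count table, and without a known strand setting reads from such overlaps cannot be told apart.

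Levels of different genes can be compared only per length. The length used is a fixed value for each gene, from 1515 bases for Acaa2 to 8730 for Hadha. Lengths of the transcripts present are not known, so the order of the genes rests on those values. Per kilobase of the gene length in the table, Acadl was the most abundant, at a mean of 205.8 CPM per kb over the 9 libraries (SD 77.2). Acaa2 followed at 138.0 (SD 44.4) and Acadm at 133.4 (SD 56.4), means closer to each other than these SDs over libraries. The genes of the shuttle and the trifunctional protein were lower. Cpt2 stood at 86.5 CPM per kb, Hadhb at 51.7, Acadvl at 49.2, Hadha at 38.9 and Cpt1a at 32.8. Slc25a20 at 18.7 (SD 6.31) and Etfdh at 17.6 CPM per kb (SD 4.89) were the lowest, again closer to each other than their SDs. Neither pair was compared within libraries.

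No gene of the 10 passed the test in any of the 3 comparisons, and neither did any of the 3958 genes, a background of 0% at an edgeR adjusted p under 0.05. Among all 3958 genes, an unadjusted p under 0.05 was found for 202 (5.1%) in EA against MPX, 117 (2.96%) in EA against CPX and 522 (13.2%) in MPX against CPX. Of the 10 genes, 0, 0 and 1 did so in those comparisons, the 1 being Cpt1a, higher in MPX than in CPX, as 4.98% of all genes were. DESeq2 called 0 of the 10 in each comparison, while over the 3938 genes to which it gave an adjusted p it called 49 (1.24%) in EA against MPX, 5 (0.127%) in EA against CPX and 201 (5.1%) in MPX against CPX. Limma voom called 0 of the 10 and 0% of all genes.

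In EA against MPX, the difference was positive for 5 of the 10 genes and negative for 5, against 51.4% positive over all genes, and the median was -0.04 on the log2 scale, against 0.01 over all genes. Only Cpt1a had ranges that did not overlap, lower in EA, as in 19% of all genes, and 40.5% of all genes had ranges that did not overlap in either direction. The split rested on EA 5: without it all 10 differences were negative (median -0.36), whereas without EA 8 they were positive for 6 of the 10 (median 0.15). It is 6 positive and 4 negative when listed counts are scaled by their sum alone. With limma voom, and with only these 2 groups fitted, it is 3 positive and 7 negative. With the label number as a block it is 7 positive and 3 negative.

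In EA against CPX, the difference was positive for all 10 genes, against 39% of all genes, with a median of 0.24, against -0.09 over all genes. No gene of the 10 had ranges that did not overlap, against 7.15% of all genes. The shared sign depended on EA 5 and CPX 6: it was positive for 3 of 10 without EA 5 (median -0.12) and 4 of 10 without CPX 6 (median -0.05), and for all 10 without CPX 4 (median 0.69). Scaling by the sum of listed counts alone left all 10 positive, with the median of all genes shifted by 0.193 and that of the 10 genes at 0.52.

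In MPX against CPX, the difference was positive for 9 of the 10 genes, against 40.7% of all genes, with a median of 0.40, against -0.11 over all genes. The exception was Cpt2 at -0.03 (SE 0.53), which is positive under sum scaling and limma voom. Only Cpt1a had ranges that did not overlap, higher in MPX, as in 8.46% of all genes, and 16.2% of all genes had ranges that did not overlap in either direction. Without CPX 6 the difference was positive for 6 of 10 (median 0.05), and without CPX 4 for all 10 (median 0.79). Sum scaling made all 10 positive, with the median of all genes shifted by 0.112. The 3 comparisons share libraries with each other, so their directions are not separate pieces of evidence. The adipocyte and B cell sums given above moved with these libraries, and their part in the differences was not tested.

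**Figure D2:**
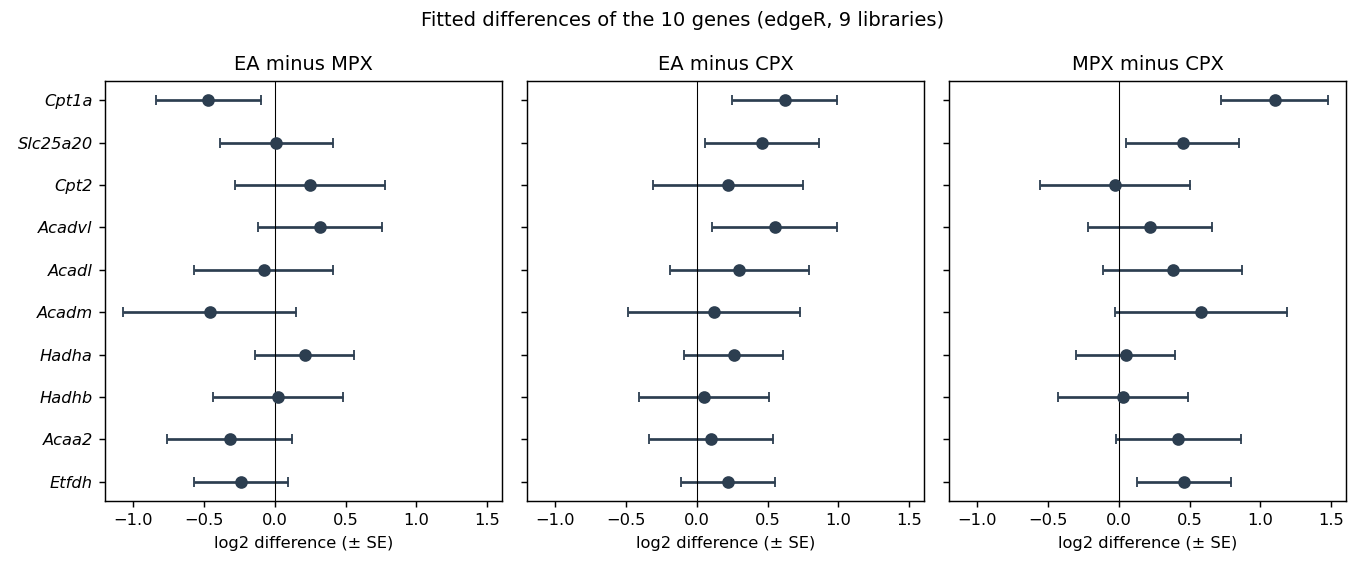
Log2 differences of the 10 genes with their SE from the edgeR fit of all 9 libraries, for EA minus MPX, EA minus CPX and MPX minus CPX. Most intervals of 1 SE cross 0, EA minus CPX is positive for all 10 genes at 0.05 to 0.62, and Cpt1a in MPX minus CPX, at 1.10, is the point farthest from 0.

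The libraries of EA and of CPX differed widely among themselves, and those of MPX less so. Within MPX the 9 genes other than Cpt1a had coefficients of variation of 6.90% to 16.3%. Within EA they were 35.2% to 45.2%, and within CPX 35.0% to 75.8%. In EA 5, 6 of these 9 genes (Slc25a20, Cpt2, Acadvl, Acadl, Hadha and Etfdh) had their highest level of all libraries, as 2.25% of all listed genes did. The other 3 (Acadm, Hadhb and Acaa2) were highest in CPX 4, as 27.1% of all genes were, and all 9 were lowest in CPX 6, as 33.1% were. The 10 genes together made up 3644, 2271 and 1842 CPM in EA libraries, 2817, 2560 and 2996 CPM in MPX libraries, and 3413, 1077 and 2120 CPM in CPX. Since these genes move together by library, they are not independent readings.

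Centred on its own mean over the 9 libraries, log2(CPM + 0.5) of the 9 genes averaged 0.68, -0.06 and -0.36 in EA, 0.21, 0.04 and 0.30 in MPX, and 0.55, -1.20 and -0.16 in CPX. Cpt1a on that scale was -0.11, 0.16 and 0.24 in EA, 0.52, 0.76 and 0.42 in MPX, and -1.66, -0.05 and -0.29 in CPX. Cpt1a was below the mean of the 9 genes in EA 5, CPX 4 and CPX 8 and above that mean in the other 6 libraries. The root mean square distance of a gene from the mean of the 10 was 0.84 for Cpt1a. It was 0.13 (Etfdh) to 0.40 (Acadm) for the others, against a median of 0.60 over the listed genes outside the 10. Each of the 10 is part of that mean, so they are nearer to it by construction. The Cpt1a distance came most from CPX 4, where Cpt1a was -1.66 against a mean of 0.33 for the 10. CPX 4 held the lowest level of 27.4% of all listed genes. Slc25a20 and Acadl were the closest pair, at 0.164, and Cpt1a and Acadm the most distant, at 1.12. Setting Cpt1a apart from the other genes was done after these values were seen, and the distances carry no test.

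**Figure D3:**
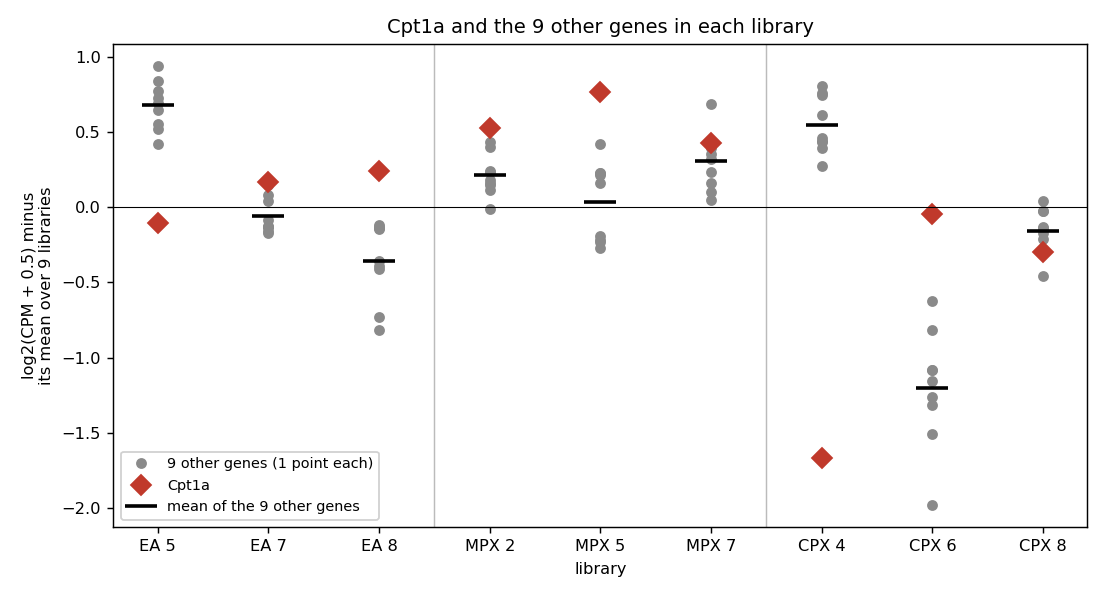
Centred log2(CPM + 0.5) of Cpt1a (diamonds) and of the 9 other genes (points, with their mean as a bar) in each of the 9 libraries. The 9 genes stand together high in EA 5 and CPX 4 and low in CPX 6, whereas Cpt1a is lowest in CPX 4 at -1.66 and highest in MPX 5 at 0.76.

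Ratios within a library do not depend on the scaling between libraries. Those given are of CPM, not per kb, so a ratio above or below 1 does not order the 2 genes. Per kb, Acadl to Acadm ran from 1.29 to 2.58 over the libraries and Hadha to Hadhb from 0.607 to 1.07. Gene lengths are fixed, so log2 differences between groups are the same on either scale. Each was compared between groups with an exact two-sided permutation test of 3 against 3 libraries, which cannot give a p below 0.1, and 15 such tests were made. Cpt1a to Cpt2 sets the liver-type outer transferase against the inner transferase. That ratio was 0.354, 0.835 and 0.876 in EA, 0.907, 1.35 and 0.819 in MPX, and 0.123, 1.89 and 0.541 in CPX. The CPX libraries held both its lowest and its highest value, and the exact p was 0.3 for EA against MPX, 0.8 for EA against CPX and 0.5 for MPX against CPX.

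The ratio of Acadvl to Acadm was 0.352, 0.275 and 0.406 in EA, 0.241, 0.171 and 0.179 in MPX, and 0.215, 0.439 and 0.262 in CPX. It was higher in all EA libraries than in all MPX libraries, by 0.81 on the log2 scale, with the exact p at its floor of 0.1 (0.3 adjusted over the 15 tests). The ratio of Hadha to Hadhb was 1.06, 1.04 and 1.20 in EA, 1.01, 0.969 and 0.900 in MPX, and 0.803, 1.41 and 0.949 in CPX. EA stood above MPX without overlap by 0.20 on the log2 scale, again at an exact p of 0.1.

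The ratio of Etfdh to Hadha was 0.343, 0.376 and 0.320 in EA, 0.382, 0.547 and 0.507 in MPX, and 0.356, 0.339 and 0.367 in CPX. MPX did not overlap with either other group, with EA minus MPX at -0.45 and MPX minus CPX at 0.42 on the log2 scale (exact p = 0.1 each). The ratio of Acadl to Acadm was 0.972, 0.736 and 1.06 in EA, 0.743, 0.697 and 0.663 in MPX, and 0.751, 1.32 and 0.748 in CPX, with MPX below CPX by a narrow margin (exact p = 0.1) and EA overlapping both. After adjustment 0 of the 15 tests passed.

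**Figure D4:**
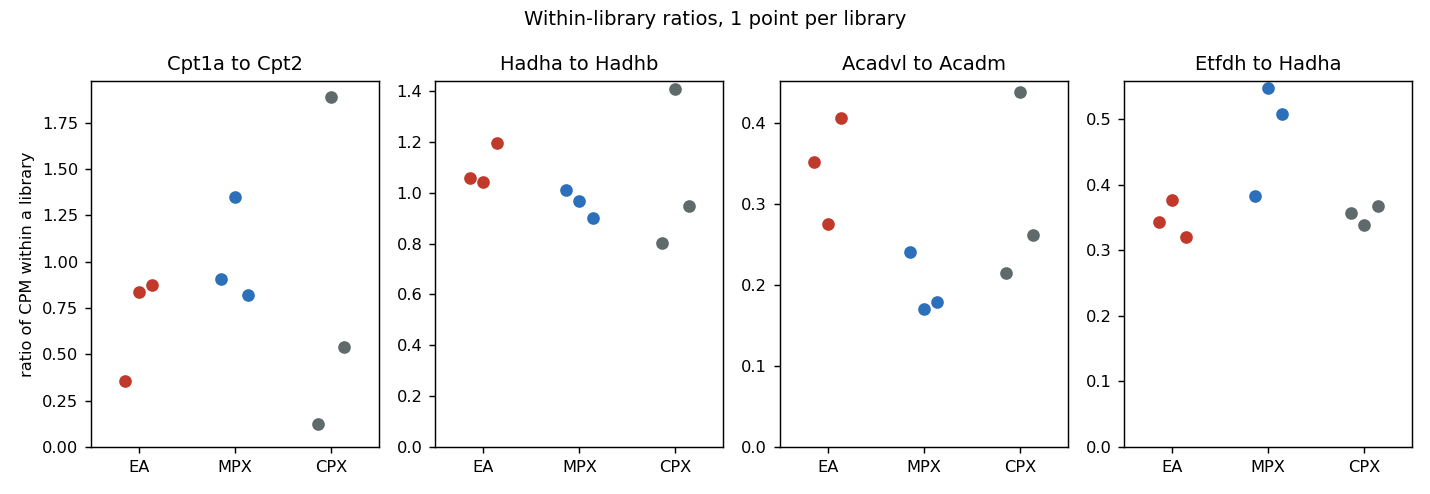
Within-library ratios of CPM for Cpt1a to Cpt2, Hadha to Hadhb, Acadvl to Acadm and Etfdh to Hadha, 1 point a library, with axes from 0. Groups are EA, MPX and CPX, and the ratio of Acadl to Acadm, also tested, is not drawn. The Acadvl to Acadm ratio is 0.275 or more in the EA libraries and 0.241 or less in the MPX libraries, and the Cpt1a to Cpt2 ratio in CPX spans 0.123 to 1.89.

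Other mitochondrial genes were set beside the 9 genes other than Cpt1a on the centred log2 scale. The 18 citric acid cycle enzymes averaged 0.38, -0.12 and -0.34 in EA, 0.12, -0.08 and 0.14 in MPX, and 0.75, -0.79 and -0.05 in CPX. The 34 nuclear encoded respiratory chain subunits averaged 0.20, -0.25 and -0.31 in EA, 0.06, -0.09 and 0.06 in MPX, and 1.23, -0.67 and -0.23 in CPX. EA 5 and CPX 4 were thus high and CPX 6 low in these lists too. The beta oxidation genes less the citric acid cycle enzymes came to 0.12 ± 0.16 in EA, 0.13 ± 0.04 in MPX and -0.24 ± 0.15 in CPX (SD, n = 3 each). Every CPX library stood below every EA and MPX library on this difference, which was not tested. Less the respiratory chain subunits they came to 0.21 ± 0.26 in EA, 0.18 ± 0.06 in MPX and -0.38 ± 0.40 in CPX, and less the 17 outer membrane, import and chaperone genes to 0.16 ± 0.40 in EA, 0.21 ± 0.07 in MPX and -0.37 ± 0.47 in CPX. On both of these differences CPX overlapped EA, with CPX 8 at 0.07 and 0.03 above EA 8 at -0.05 and -0.22. Less the 20 adipocyte markers they came to 0.15 ± 0.35 in EA, -0.28 ± 0.11 in MPX and 0.13 ± 0.94 in CPX, where CPX 6 alone stood at 1.21. In CPX 6 the beta oxidation genes were low by less than the adipocyte markers, which averaged -2.41.

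**Figure D5:**
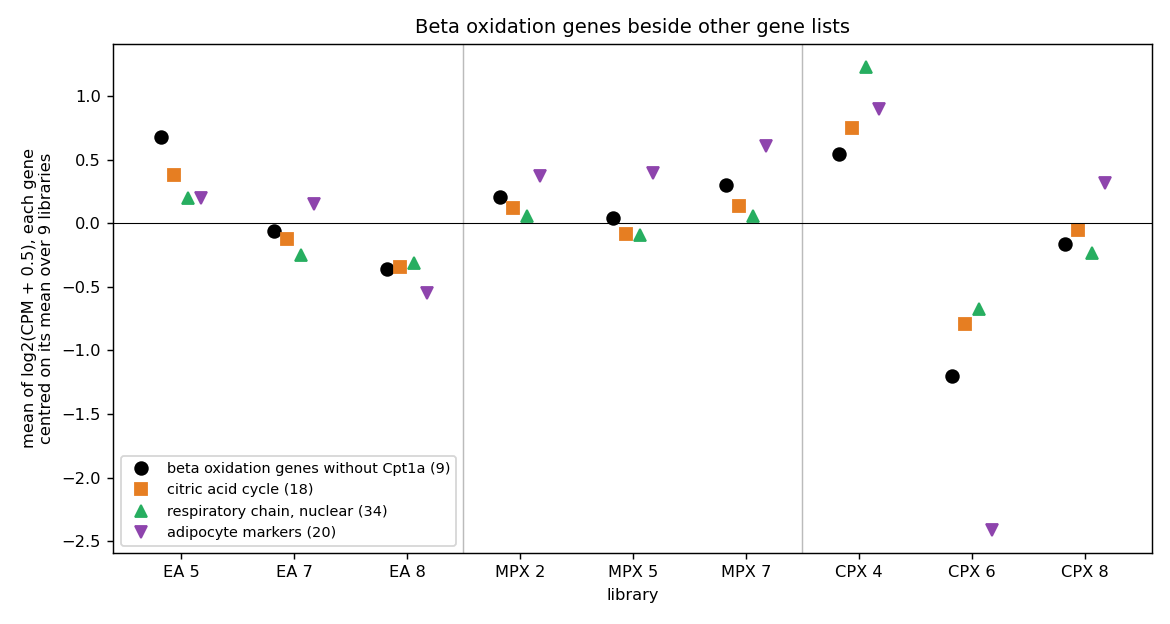
Mean centred log2(CPM + 0.5) of the 9 beta oxidation genes other than Cpt1a, the 18 citric acid cycle enzymes, the 34 respiratory chain subunits and the 20 adipocyte markers in each library. All 4 lists are lowest in CPX 6, where the adipocyte markers reach -2.41, and in EA 5 the beta oxidation genes are the highest of the 4 at 0.68.

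The rest of the pathway was read from lists of genes around these enzymes. Of the lists below, 0 genes passed the edgeR test in any comparison, and the genes named are those that their rule takes without reaching the threshold. Directions are those of the TMM fit, and a scaling by the sum of listed counts moved those against CPX. Other mitochondrial beta oxidation genes (14 of 25 listed) were positive for 4 and negative for 10 in EA against MPX (median -0.16), 6 and 8 in EA against CPX (median -0.02), and 8 and 6 in MPX against CPX (median 0.16). Under sum scaling they were positive for 11 and negative for 3 in both comparisons with CPX, with the median of EA against CPX at 0.29, the opposite sign. Ech1, an enzyme for unsaturated chains, stood at -0.49 in EA against MPX (SE 0.53). Peroxisomal beta oxidation genes (12 of 21 listed) were positive for 3 and negative for 9 in EA against MPX (median -0.22), and positive for 7 and negative for 5 in both comparisons with CPX (medians 0.07 for EA and 0.25 for MPX), or for 11 and 1 under sum scaling. Hsd17b4, the peroxisomal multifunctional enzyme, averaged 318.5 ± 106.7 CPM in EA, 505.3 ± 36.3 CPM in MPX and 253.2 ± 117.5 CPM in CPX. Its log2 difference was -0.67 for EA minus MPX (edgeR adjusted p = 0.775) and 1.00 for MPX minus CPX (edgeR adjusted p = 0.374). Abcd2, a peroxisomal fatty acid transporter, stood at -0.56 (SE 0.67) in EA against MPX, and Pex5, the peroxisomal import receptor, at -0.40 (SE 0.36).

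Regulators of fatty acid oxidation (8 of 22 listed) were positive for 4 and negative for 4 in EA against MPX (median 0.05), 3 and 5 in EA against CPX (median -0.18, and 0.13 under sum scaling), and 2 and 6 in MPX against CPX (median -0.23). Among them, the genes for acetyl-CoA carboxylase, which makes malonyl-CoA, had the largest differences of the list. Acacb, whose product sits at the mitochondrial outer membrane, had 711.2, 481.7 and 443.3 CPM in EA libraries, 181.1, 186.8 and 111.3 CPM in MPX libraries, and 497.2, 114.2 and 382.9 CPM in CPX. It was higher in every EA library than in every MPX library, by 1.77 on the log2 scale (SE 0.52; edgeR unadjusted p = 0.00861, adjusted p = 0.775), and EA overlapped CPX. Acaca, the cytosolic form, had 878.1, 340.5 and 478.8 CPM in EA libraries, 352.6, 203.0 and 365.5 CPM in MPX libraries, and 1802, 368.4 and 1437 CPM in CPX. MPX minus CPX was -1.97 for Acaca (SE 0.62; edgeR adjusted p = 0.362), with CPX 6 just above the highest MPX library. The same list held Prkaa1, a catalytic subunit of AMP-activated protein kinase, at -0.39 (SE 0.21) in EA against MPX. In that comparison the corepressor gene Ncor1 was at 0.29 (SE 0.26). By group means, MPX had the highest Cpt1a level and the lowest level of both carboxylase genes. This did not hold for every library. CPX 6 had Acacb at 114.2 CPM and Acaca at 368.4 CPM, near the MPX libraries, with Cpt1a at 125.3 CPM, below them. Whether the levels of these genes are linked was not tested.

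Other PPAR target genes (11 of 17 listed) were positive for 5 and negative for 6 in EA against MPX (median -0.15), and positive for 9 and negative for 2 in both comparisons with CPX (medians 0.42 for EA and 0.76 for MPX). Cyp4b1, a cytochrome P450, stood at 0.86 in EA against CPX (edgeR unadjusted p = 0.0108, adjusted p = 0.997) and at 0.70 in MPX against CPX. In EA against MPX, Cd36, which takes up fatty acids, was at -0.65 (SE 0.66). Fabp4, which binds them in the adipocyte cytosol, was at -0.58 (SE 0.79) in that comparison, and the lipid droplet gene Plin2 at -0.40 (SE 0.5). Each of these 3 differences was smaller than its SE. The glycerol channel gene Aqp7 was at 1.15 (SE 0.66) and Cd36 at 0.76 (SE 0.66) in MPX against CPX. Cd36, Fabp4 and Aqp7 are also abundant in adipocytes.

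Genes whose centred profile was near to the mean of the 10 over the 9 libraries were sought among 3948 others, by the same root mean square distance. Gm13910 (0.110), the mitochondrial protease gene Lonp1 (0.138), Cluh (0.148), whose product binds mRNAs of mitochondrial proteins, Vwa8 (0.158) and Cenpb (0.161) were among the nearest. For Cpt1a alone, compared with 3957 genes after its values were seen, the nearest was Piezo1, a mechanosensitive channel gene, at 0.214. Likeness over 9 libraries is a description and says nothing of shared function.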

How the data were processed

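Adipose tissue RNA of 9 mouse libraries (3 EA, 3 MPX and 3 CPX) was read from the authors' deposited table of raw counts per gene, 1 column a library. Per the labels' protocols, a TruSeq RNA kit was used. Alignment to mm10 was by HISAT2 2.0.5, per the submitters' processing notes. Which program, annotation and strand setting gave the counts is not stated in these sources. The table used here lists 3958 genes by falling total, with totals of 3653827 down to 8471, and breaks off within its final row; less abundant genes were not analysed here. CPM is therefore relative to the listed counts and is higher than over a whole library, and the depth is unknown.

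The counts entered edgeR 4.0.16 (R 4.3.3; TMM, filterByExpr, robust quasi-likelihood, a mean per group, all 9 libraries in 1 fit), with Benjamini-Hochberg adjustment over 3958 genes in each of 3 contrasts and a threshold of 0.05. The filter removed 0 genes. The biological coefficient of variation was 40.2%. SD values are over 3 libraries of a group. No library was a copy of another in its group (chi-square of 71.5 or more per degree of freedom). The method was tested on simulated counts. The alternatives were other scalings, no filter, DESeq2 1.42.0, limma 3.58.1 voom, the robust option off, the 2 groups alone, libraries left out and the label number as a block. Centred values use log2(CPM + 0.5). Ratios were tested on CPM per kb with exact permutations. Promoter windows are from RefSeq (GRCm38.p6); GC box, ERR and CCAAT searches were added after the sequences were seen. Coordinates are those of the authors' table.

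The genes and lists were chosen with earlier results of these data known. All 10 genes are named in every contrast. Of each other pathway list, the genes past the threshold were to be named, or else up to 3 with the smallest unadjusted p and ranges that do not overlap. The 6 genes nearest to the mean profile were to be named. Some genes that these rules take are not reported here, and no others took their place. Protein sequences and the Acaa2 window were not used here.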

Additional observations from a re-analysis of the deposited data

How the results depend on the processing

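The count of the 10 genes past the threshold was 0 under every alternative run. The count over all genes, 0 with edgeR in each comparison and 0 with limma voom, did change. For EA against MPX it was 49 with DESeq2, 84 with only those groups fitted, 80 without CPX 4 and CPX 6, and 0 to 23 with 1 library left out (23 without CPX 6). For EA against CPX it was 5 with DESeq2 and 0 to 12 with 1 library left out (12 without CPX 6). For MPX against CPX it was 201 with DESeq2 and 0 to 168 with 1 library left out (168 without CPX 8). The cause was not tested. With no gene removed by the filter, the fit without it says nothing about stability.

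Label numbers 5 and 7 occur in both EA and MPX, and number 8 in both EA and CPX. The correlation of deviations between same-numbered libraries was 0.0257 for number 5, 0.121 for number 7 and -0.506 for number 8. It was 0.226 for EA 5 with MPX 7 and 0.413 for EA 7 with MPX 5, whose numbers differ. These values cannot tell whether same-numbered libraries share more than a number. With the number as a block, leaving 1 residual degree of freedom, 6 genes were called and 0 of the 10; Acadl was then 0.062 and Acaa2 0.016. The other sign changes were of differences near 0. In EA against MPX, Slc25a20 was -0.00011 with DESeq2 size factors, -0.00012 with DESeq2, -0.038 with voom, and -0.0207 both with only those groups and without CPX 4 and CPX 6. Hadhb was -0.023 with voom and -0.0051 in the last 2 settings, and Acadl was 0.0087 under sum scaling. In MPX against CPX, Cpt2 was 0.19 under sum scaling, 0.22 with voom and 0.014 without CPX 4 and CPX 6.

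With each library left out in turn, EA against MPX ran from -0.33 to 0.16 for Slc25a20, -0.15 to 0.41 for Cpt2, -0.073 to 0.52 for Acadvl, -0.51 to 0.14 for Acadl, -0.13 to 0.35 for Hadha and -0.34 to 0.21 for Hadhb. EA against CPX ran from -0.21 to 0.81 for Cpt2, -0.13 to 0.89 for Acadl, -0.35 to 0.83 for Acadm, -0.072 to 0.56 for Hadha, -0.32 to 0.57 for Hadhb, -0.24 to 0.49 for Acaa2 and -0.10 to 0.52 for Etfdh. MPX against CPX ran from -0.44 to 0.60 for Cpt2, -0.12 to 0.70 for Acadvl, -0.16 to 0.38 for Hadha and -0.33 to 0.58 for Hadhb. The differences that kept their sign moved too. EA against MPX ran from -0.80 to -0.19 for Acadm, -0.58 to -0.036 for Acaa2 and -0.56 to -0.061 for Etfdh. EA against CPX ran from 0.12 to 0.97 for Slc25a20 and 0.15 to 1.00 for Acadvl. MPX against CPX ran from 0.16 to 0.99 for Slc25a20, 0.02 to 1.00 for Acadl, 0.12 to 1.32 for Acadm, 0.09 to 0.84 for Acaa2 and 0.22 to 0.79 for Etfdh. Other scalings of the pathway lists, and leaving out libraries for ratios and sums, were added after seeing the data. The Cpt1a to Cpt2 ratio then ran from -0.66 (without CPX 4) to 1.31 (without CPX 6) on the log2 scale for EA minus CPX. Groups of 3 were too small for a search for outlying libraries.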
